A study of Mus musculus with 20 samples.

Results

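The DNA methyltransferase genes Dnmt1, Dnmt3a, Dnmt3b and Dnmt3l and their cofactor gene Uhrf1 were chosen by name from the 46939 genes of the deposited RNA table, and each of the 5 symbols matched 1 row. RNA was measured by sequencing in 2 TDG KO and 2 WT libraries of mouse embryonic stem cells, and CTCF binding by chromatin immunoprecipitation with sequencing in 2 TDG KO and 2 WT libraries. In TDG KO cells Tdg, the gene of thymine DNA glycosylase, is knocked out, and WT cells are their wildtype counterpart. Both lines are of strain background 129 and were grown in serum and LIF on mitotically arrested mouse embryonic fibroblasts, which were depleted by repeated plating before use. The labels name no separate clones or cultures, so the contrast is also one between 2 lines. The p-values below weigh it against library-to-library spread alone, and that spread may be technical.

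Cytosine methylation in mammals is written by 2 kinds of enzyme. Dnmt3a and Dnmt3b set new methylation, with Dnmt3l as a partner that has no catalytic activity of its own, while Dnmt1 copies the pattern onto newly made DNA after Uhrf1 has recognised the hemimethylated sites. Methylated cytosines are oxidised by TET enzymes, and TDG removes the most oxidised forms so that base excision repair can restore plain cytosine. In mouse embryonic stem cells Dnmt3a is transcribed largely from an internal start that gives the shorter protein Dnmt3a2.

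The genes that set new methylation had higher RNA in TDG KO cells, while the maintenance genes were slightly lower or not called. Dnmt3a was 2.86-fold, Dnmt3b 2.12-fold and Dnmt3l 2.05-fold as high in TDG KO as in WT cells. Dnmt1 was 18.2% lower, and Uhrf1 did not pass the test. Of the 5 genes 3 rose and 1 fell at an adjusted p under 0.05. These counts stand against a contrast in which 54% of the 12035 tested genes were called, 24.4% higher and 29.5% lower. The balance between directions depended on the setting, with 2942 higher and 3554 lower here, 3293 and 3057 under median-of-ratios scaling, 3236 and 3167 under upper-quartile scaling, and 3345 and 2886 without the filter on low FPKM. The authors' deposited table has 2489 higher and 1961 lower. A rise of at least 1 on the log2 scale, which Dnmt3a, Dnmt3b and Dnmt3l all showed, was called in 3.61% of tested genes.

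The upstream sequences of the 3 genes that rose are shown first, because their starts differ in kind. They are the 250 bases before annotated starts, from RefSeq on GRCm38.p6, 5′ to 3′ along the transcribed strand, with capitals marking the GC box GGGCGG on either strand, a motif bound by Sp and Klf factors. All 5 genes matched entries of the RefSeq promoter table.
Dnmt3a, first start, chr12:3806730-3806979, plus strand: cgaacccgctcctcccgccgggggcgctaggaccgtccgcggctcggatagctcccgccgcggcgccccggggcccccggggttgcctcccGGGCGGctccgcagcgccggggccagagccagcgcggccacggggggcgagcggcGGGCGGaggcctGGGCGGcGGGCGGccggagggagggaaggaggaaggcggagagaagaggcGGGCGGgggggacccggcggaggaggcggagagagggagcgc
Dnmt3a, internal start, chr12:3891494-3891743, plus strand: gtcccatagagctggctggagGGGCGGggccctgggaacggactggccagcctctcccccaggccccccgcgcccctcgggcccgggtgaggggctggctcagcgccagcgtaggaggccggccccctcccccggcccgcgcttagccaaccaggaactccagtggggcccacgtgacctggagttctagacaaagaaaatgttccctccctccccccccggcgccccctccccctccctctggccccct
Dnmt3b, chr2:153649199-153649448, plus strand: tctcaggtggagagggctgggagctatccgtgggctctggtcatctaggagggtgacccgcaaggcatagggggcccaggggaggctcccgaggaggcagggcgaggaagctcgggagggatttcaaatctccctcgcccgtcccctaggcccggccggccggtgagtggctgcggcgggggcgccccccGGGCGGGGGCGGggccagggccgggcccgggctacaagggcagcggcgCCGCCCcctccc
Dnmt3l, first start, chr10:78042037-78042286, plus strand: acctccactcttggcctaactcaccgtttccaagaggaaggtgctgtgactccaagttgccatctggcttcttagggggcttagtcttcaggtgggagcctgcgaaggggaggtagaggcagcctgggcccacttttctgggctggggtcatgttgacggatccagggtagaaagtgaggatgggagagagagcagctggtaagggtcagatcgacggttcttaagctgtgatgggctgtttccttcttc

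The window before the first Dnmt3a start held 38 CpG dinucleotides and 5 GC boxes, and that before the internal start 15 CpG and 1 GC box. Dnmt3b had 21 CpG and 3 GC boxes, while the window before the first Dnmt3l start had 5 CpG and no GC box. Of the other 2 Dnmt3l windows, that before the start at position 78049842 held 4 CpG and 2 GC boxes. Gene-level FPKM does not tell which Dnmt3l start was used in these cells. The median over all 32851 windows of this length was 6 CpG, and 32.7% of them held a GC box. The windows of the 3 genes that rose thus ranged from CpG-dense to CpG-poor.

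The maintenance genes differed from these in another motif. A loose form of the E2F motif, TTTNNCGC with N for any base, was searched on both strands. It lay in both Uhrf1 windows and, with 2 matches, in 1 of the 3 Dnmt1 windows. It lay in no window of Dnmt3a, Dnmt3b or Dnmt3l, and in 4.28% of all windows. E2F factors drive genes of DNA replication, but a match to this loose form does not show that they bind there. The match in the first Uhrf1 window is shown in capitals.
Uhrf1, first start, chr17:56303087-56303336, plus strand: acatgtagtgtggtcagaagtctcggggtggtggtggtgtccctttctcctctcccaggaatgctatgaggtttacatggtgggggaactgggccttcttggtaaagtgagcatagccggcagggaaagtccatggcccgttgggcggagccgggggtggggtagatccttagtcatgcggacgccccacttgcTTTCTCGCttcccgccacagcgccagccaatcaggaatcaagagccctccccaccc

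Matches of different motifs were counted separately even where they overlapped. They describe the letters only.

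Dnmt3a (ENSMUSG00000020661, chr12:3806007-3914443) changed most. Its level was 35.5 and 36.3 FPKM in TDG KO and 12.3 and 12.9 FPKM in WT, where FPKM counts fragments per transcript length and library size. The groups were far apart relative to the gap between replicates. The means were 35.9 ± 0.577 FPKM in TDG KO and 12.6 ± 0.414 FPKM in WT (SD, n = 2 each), a log2 change of 1.44 on the log2(FPKM + 1) scale (SE 0.063, limma with Benjamini-Hochberg adjustment over all tested genes, adjusted p = 1.66e-05). Within each library Dnmt3a ranked above 76.5% of tested genes in both TDG KO libraries and above 51.1% and 51.9% in WT replicates 1 and 2. The table gives the gene as a whole, so transcripts from the internal start and from the upstream starts were not told apart.

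Dnmt3b (ENSMUSG00000027478, chr2:153648690-153687730), the other enzyme for new methylation, stood at 45.5 and 48.1 FPKM in TDG KO against 21.96 and 22.17 FPKM in WT. Its 2 WT values were nearly equal and both TDG KO values lay above them. The log2 change was 1.05 (SE 0.062, limma adjusted p = 4.77e-05). Dnmt3b was the more abundant of the pair per length in every library, but less so in TDG KO, since the ratio of Dnmt3b to Dnmt3a FPKM was 1.28 and 1.33 in TDG KO and 1.79 and 1.73 in WT. The ratios of the genotypes did not overlap. With 2 libraries a side the smallest p of an exact 2-sided permutation test is 0.33, so ratios are given without one.

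Dnmt3l (ENSMUSG00000000730, chr10:78030022-78063622 in the authors' table) reached 100.0 and 110.8 FPKM in TDG KO and 51.6 and 51.1 FPKM in WT. The TDG KO replicates differed more here than for the other genes, by a factor of 1.11, but both lay far above WT. The log2 change was 1.02 (SE 0.069, limma adjusted p = 8.56e-05). Per unit of Dnmt3a plus Dnmt3b, Dnmt3l was lower in TDG KO, at ratios of 1.24 and 1.31 against 1.51 and 1.46 in WT. Its RefSeq gene shares 1324 bases with Aire, a transcription factor gene of the thymus on the opposite strand, and no source used here states whether counting used strand. Aire was at 7.83 and 7.78 FPKM in TDG KO and 4.35 and 4.31 FPKM in WT, a log2 change of 0.73 (SE 0.074, limma adjusted p = 0.000408), while the authors' deposited table does not mark it as significant (q = 0.485). How far reads are shared between the 2 genes was not tested.

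Dnmt1 (ENSMUSG00000004099, chr9:20907206-20959888) moved the other way by a small amount. It was at 61.0 and 60.9 FPKM in TDG KO and at 75.7 and 73.4 FPKM in WT. The replicates lay close together and the groups did not overlap, as was the case in 78.8% of tested genes. The log2 change was -0.29 (SE 0.057, limma adjusted p = 0.00597). In the authors' deposited table the same change of -0.29 has a q-value of 0.131 and is not significant, so the call of Dnmt1 rests on the test used.

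Uhrf1 (ENSMUSG00000001228, chr17:56303321-56323486) had the highest level of the 5 in all 4 libraries, with 131.7 and 135.5 FPKM in TDG KO and 152.8 and 145.1 FPKM in WT. Both TDG KO values lay below both WT values, and the groups did not overlap in 78.8% of tested genes. The log2 change of -0.16 (SE 0.062, limma adjusted p = 0.0709) did not pass the threshold, which does not show that the level was the same. In the authors' deposited table its q-value is 0.474. The ratio of Uhrf1 to Dnmt1 was 2.16 and 2.22 in TDG KO and 2.02 and 1.98 in WT.

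The order of the levels per length therefore differed between the genotypes in 1 place. In TDG KO it ran from Uhrf1 through Dnmt3l, Dnmt1 and Dnmt3b to Dnmt3a, and in WT Dnmt1 stood above Dnmt3l. In each genotype the 2 libraries of a gene did not overlap those of the next gene in the order. Of the summed FPKM of the 3 catalytic genes, Dnmt1 made up 43.0% and 41.9% in TDG KO and 68.9% and 67.7% in WT. The ratio of Dnmt3a plus Dnmt3b to Dnmt1 was 1.33 and 1.39 in TDG KO and 0.452 and 0.477 in WT.

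**Figure D1:**
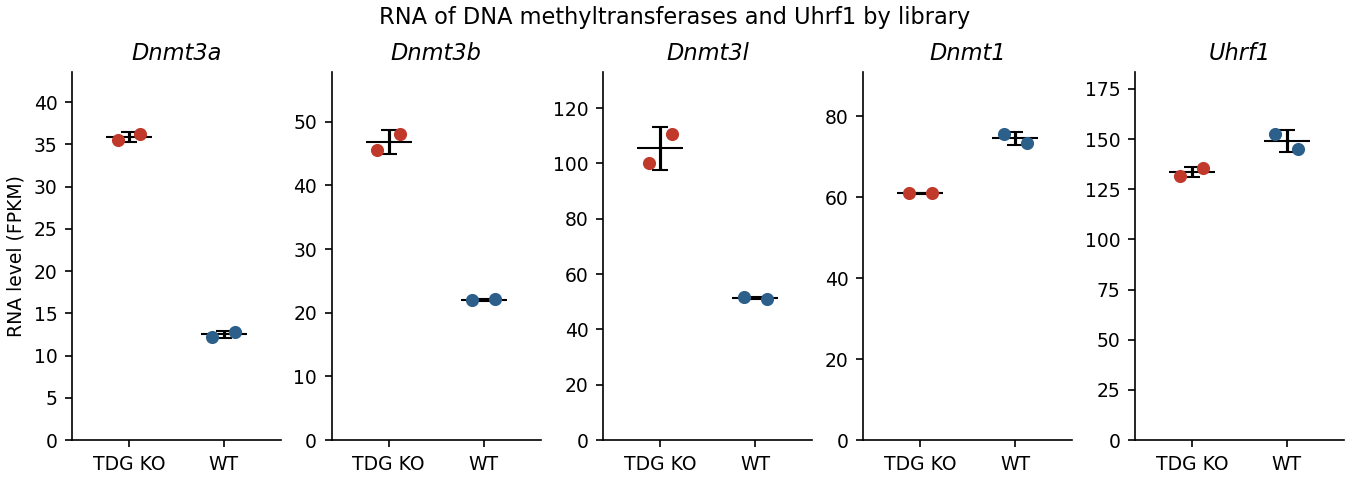
RNA level in FPKM (y axis, from 0) of each gene in the 2 TDG KO and 2 WT libraries (points), with bars for mean ± SD. Dnmt3a, Dnmt3b and Dnmt3l are higher in both TDG KO libraries, Dnmt1 is lower at 61.0 and 60.9 against 75.7 and 73.4 FPKM, and Uhrf1 shows the smallest relative gap.

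Near copies and antisense genes were close to 0 in all libraries. Gm14490, the mouse gene also known as Dnmt3c, a male germ cell methyltransferase next to Dnmt3b, was at 0.014 and 0.015 FPKM in TDG KO and 0.00697 and 0.00812 FPKM in WT. The antisense gene Dnmt3bos was at 0.0269 and 0.114 FPKM in TDG KO and at 0 and 0.0308 FPKM in WT. Dnmt3aos is listed at 0 in both TDG KO libraries and at 0 and 0.0137 FPKM in WT. None of these was tested.

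The authors' own comparison gave the same 3 rises. In the authors' deposited table Dnmt3a has a log2 change of 1.51, Dnmt3b of 1.08 and Dnmt3l of 1.04, with the sign turned here to TDG KO over WT, each at q = 0.000468. That table marks 3 of the 5 genes as significant, against 27.4% of the 16262 genes it tested.

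**Figure D2:**
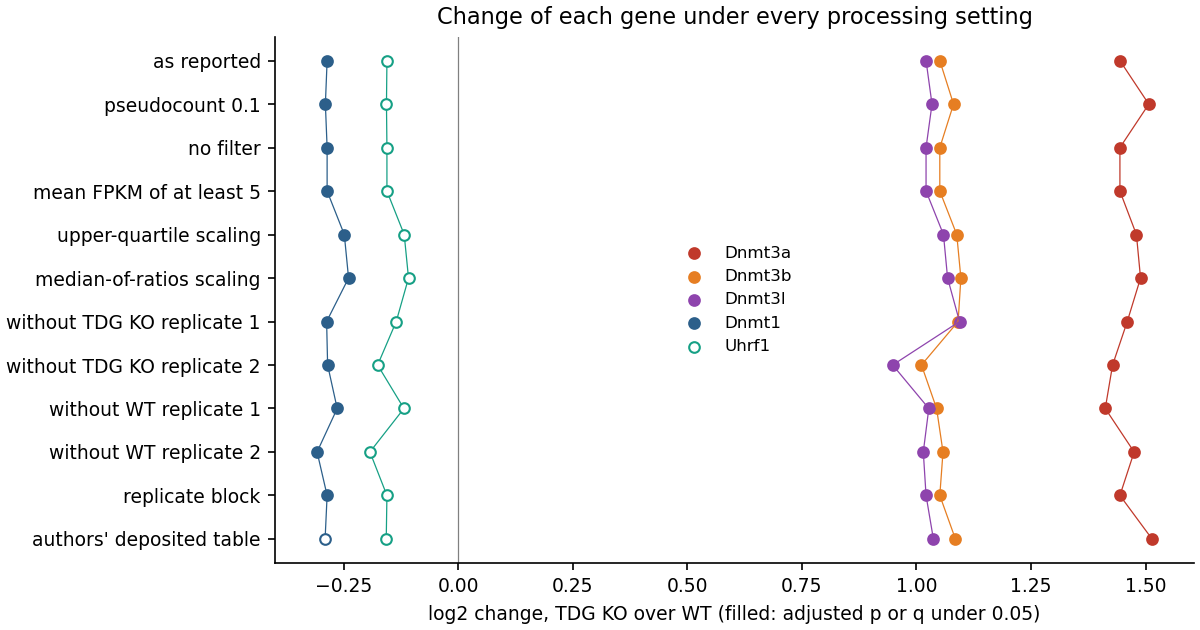
Log2 change of each gene, TDG KO over WT (x axis), under the reported fit, 10 other settings and the authors' deposited table (rows); filled points have an adjusted p or q under 0.05. Dnmt3a stays between 1.41 and 1.51, Dnmt3b and Dnmt3l stay near 1, Dnmt1 is open only in the authors' table and Uhrf1 is open throughout.

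The check of the labels and of the cells came out as follows. Tdg was at 5.50 and 4.74 FPKM in TDG KO and at 28.1 and 30.4 FPKM in WT (log2 change -2.31, SE 0.087, limma adjusted p = 9.21e-06). All 11 stem cell markers were expressed, with 2 (18.2%) higher and 6 (54.5%) lower in TDG KO (limma), against 24.4% and 29.5% of all tested genes. Pou5f1, a core pluripotency factor, was at 996 and 1094 FPKM in TDG KO and 1509 and 1572 FPKM in WT, and Utf1, a chromatin factor of stem cells, rose by 0.67 on the log2 scale. Without WT replicate 1 the counts were 1 higher and 3 lower, and without WT replicate 2 they were 2 higher and 3 lower, while the call of Dppa5a was lost in both (adjusted p = 0.0763 and 0.162). Of 29 tested fibroblast markers 16 (55.2%) were lower and 3 (10.3%) higher in TDG KO. Their summed FPKM was 1095 and 1184 in TDG KO and 1459 and 1063 in WT, so the groups overlapped and WT replicate 1 stood apart, with 25 of the 29 markers highest in it. No tested marker was at 0 in any library, and Col3a1, a fibrillar collagen, was at 15.3 and 19.0 FPKM in TDG KO and 57.1 and 29.8 FPKM in WT. The count of 16 was 9 without WT replicate 1, 25 without WT replicate 2, 4 without TDG KO replicate 1, 3 without TDG KO replicate 2 and 5 with no filter on FPKM.

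Between the WT libraries the summed FPKM of the fibroblast markers differed by a factor of 1.37. Single markers ranged around that, from Col3a1 above to Ctgf at 24.6 and 24.4 FPKM in WT. None of the 5 genes differed by more than 1.11 between the 2 libraries of either genotype. Without WT replicate 1 the log2 changes were 1.41 for Dnmt3a, 1.04 for Dnmt3b, 1.03 for Dnmt3l, -0.26 for Dnmt1 and -0.12 for Uhrf1. In bulk RNA, a different share of expressing cells and a different level per cell cannot be told apart.

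Among 12 tested genes linked to Dnmt1 and Uhrf1, 6 (50%) fell, 3 (25%) rose and 3 were not called in TDG KO. The list mixes helpers with genes whose products act against Dnmt1 or Uhrf1, such as Dppa3 and Setd7, so its counts describe no single function. Over all tested genes 29.5% fell and 24.4% rose. The median log2 change of the list was -0.18, against -0.04 over all tested genes. Hells, a remodeller that opens chromatin for methylation, was at 95.7 and 80.1 FPKM in TDG KO and 122.9 and 120.0 FPKM in WT (log2 change -0.47, SE 0.090, limma adjusted p = 0.00496). Its partner Cdca7 fell by 0.48. The gene listed as 2810417H13Rik, also called Pclaf, whose product loads on the replication clamp and helps recruit Dnmt1, fell by 0.95.

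Dppa3, whose product keeps Uhrf1 off chromatin in oocytes and early embryos, was the exception in size. It was at 57.8 and 61.9 FPKM in TDG KO and 1.83 and 1.67 FPKM in WT (log2 change 4.47, SE 0.074, limma adjusted p = 7.14e-07). Usp7, a deubiquitinase that binds Dnmt1 and Uhrf1, rose by 0.41. Setd7, a lysine methyltransferase that marks Dnmt1 for degradation, was at 3.85 and 3.13 FPKM in TDG KO and 2.18 and 2.21 FPKM in WT, a rise of 0.49. Uhrf2, the close relative of Uhrf1, had a log2 change of 0.03 and was not called (SE 0.065, limma adjusted p = 0.744).

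Of 13 tested genes linked to new methylation or to imprints, 1 (7.69%) rose and 6 (46.2%) fell, against 24.4% and 29.5% of all tested genes. The list mixes genes of different and opposed roles, such as the repressor Prdm14 below, so its counts describe no single function. The median log2 change of the list was -0.13. Zfp57, a zinc finger protein that holds methylation at imprinted regions, was at 149.1 and 140.3 FPKM in TDG KO and 272.0 and 282.8 FPKM in WT (log2 change -0.93, SE 0.065, limma adjusted p = 9.62e-05). Setdb1, a histone methyltransferase recruited by such zinc fingers, fell by 0.53. Zfp445, another imprint guard, fell by 0.59. Its log2 change was -0.34 when TDG KO replicate 2 was left out and -0.84 when the other TDG KO library was, and it missed the threshold when TDG KO replicate 2 (adjusted p = 0.0604) or WT replicate 1 (0.0831) was left out and when low genes were kept (0.0968). Trim28, their shared corepressor, had a log2 change of -0.01 and was not called (SE 0.085, limma adjusted p = 0.937). The count of 6 lower genes was 3 without TDG KO replicate 2 and 3 without WT replicate 1, and the single riser, Kdm2b (log2 change 0.27), was lost in both.

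Prdm14, which represses Dnmt3b and Dnmt3l in mouse stem cells, was at 11.4 and 11.8 FPKM in TDG KO and at 13.8 and 14.04 FPKM in WT. The groups did not overlap, as in 78.8% of tested genes, and the log2 change was -0.24 (SE 0.066, limma adjusted p = 0.01995). The call did not hold when any 1 of the 4 libraries was left out (adjusted p between 0.055 and 0.110). Its part in the levels of Dnmt3b and Dnmt3l was not tested.

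Of 11 tested genes of the cycle that supplies the methyl donor, 3 (27.3%) rose and 3 (27.3%) fell. These shares were near the 24.4% and 29.5% of all tested genes, and the median log2 change of the list was 0.04. Shmt2, a serine hydroxymethyltransferase of mitochondria, rose by 0.40, and Mthfd1, a folate enzyme, fell by 0.39. Mtr, methionine synthase, fell by 0.33, but the call was lost when TDG KO replicate 2 (adjusted p = 0.069) or WT replicate 1 (0.0784) was left out. Without WT replicate 1 the list had 1 lower gene.

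Because Dnmt1 and Uhrf1 rise in S phase, genes of DNA replication were set beside them. Of 25 tested genes 14 (56%) fell and 3 (12%) rose in TDG KO, against 29.5% and 24.4% of all tested genes. The median log2 change of the list was -0.25. Pola1, the catalytic subunit of polymerase alpha, was at 20.7 and 19.0 FPKM in TDG KO and 37.3 and 40.8 FPKM in WT (log2 change -0.94, SE 0.075, limma adjusted p = 0.000162). The helicase subunit Mcm4 rose by 0.75 and Cdc6, which loads the helicase, by 0.67, while Mcm7 of the same helicase fell by 0.56. Without WT replicate 2 the count of 14 lower genes was 6. The part of cell cycle in the level of Dnmt1 was not tested.

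**Figure D3:**
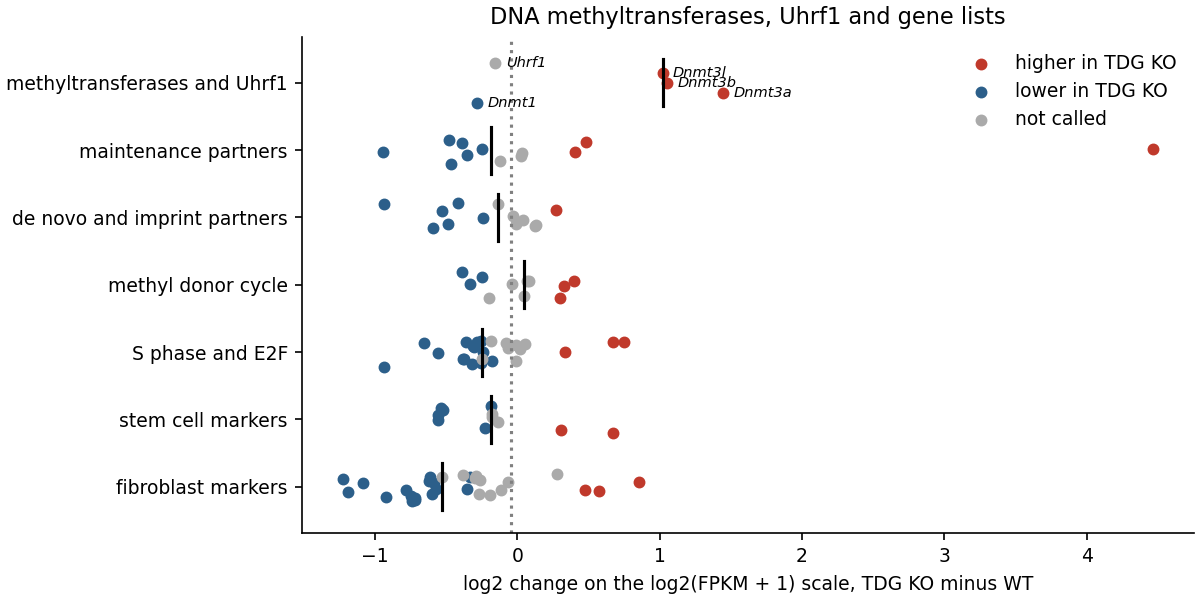
Log2 change of each tested gene, TDG KO minus WT (x axis), for the methyltransferases with Uhrf1 and 6 gene lists (rows); black bars are list medians and the dotted line is the median of all tested genes. Dnmt3a, Dnmt3b and Dnmt3l lie above 1, beyond every listed gene except Dppa3 at 4.47.

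Most neighbouring genes did not share the rises, as was the case for most genes anywhere. Of all tested genes, 98.3%, 96.6% and 96.3% had a lower log2 change than Dnmt3a, Dnmt3b and Dnmt3l. As a background to the counts that follow, 24.4% of all tested genes were called higher and 29.5% lower. Within 2 Mb of Dnmt3a 21 other genes were tested, with a median log2 change of 0.01 and 5 called in each direction. None was as high as Dnmt3a. Around Dnmt3b 49 genes had a median of -0.11, with 10 higher and 18 lower, and none reached Dnmt3b. Around Dnmt3l 57 genes had a median of 0.16, with 22 higher and 8 lower, so this neighbourhood lay above the median of all genes, and its median was 0.07 within 1 Mb and 0.06 within 5 Mb. Slc5a4b (1.78) and Cstb (1.14), named after their values were seen, were the 2 that rose further than Dnmt3l there. Near Dnmt1 60 genes had a median of -0.04 and 11 lay below it, and near Uhrf1 40 genes had a median of 0.01 and 15 lay below it.

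**Figure D4:**
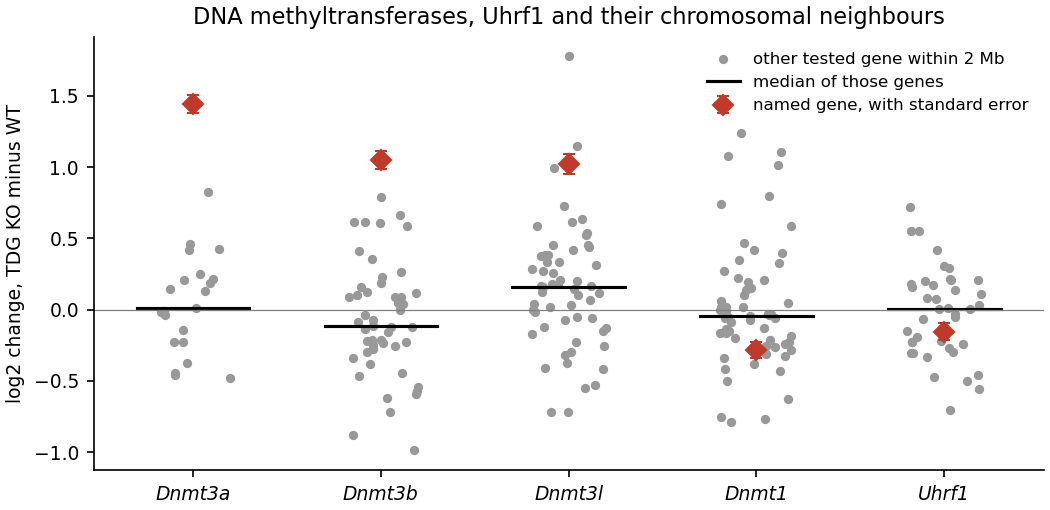
Log2 change, TDG KO minus WT (y axis), of each gene (red diamonds with standard error) and of the other tested genes within 2 Mb (grey points, bars are medians). Dnmt3a and Dnmt3b lie above all 21 and 49 neighbours, Dnmt3l above 55 of 57, and Dnmt1 and Uhrf1 inside the range of theirs. Of all tested genes, 98.3%, 96.6% and 96.3% lie below Dnmt3a, Dnmt3b and Dnmt3l.

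The genes with the most similar pattern were found by the root mean square difference of the 4 log2(FPKM + 1) values, each gene centred on its own WT mean, over 8469 genes with a mean of at least 5 FPKM. For Dnmt3a they were Cldn6 (0.007), Itga3 (0.045) and Tex19.1 (0.045), and 22 genes lay within 0.1. For Dnmt3b they were Grb7 (0.012), Slc9a3r1 (0.015) and Dusp14 (0.018), with 94 genes within 0.1, and for Dnmt3l Bbs2 (0.027), Myh10 (0.029) and Arhgap8 (0.030), with 102. Dnmt3b and Dnmt3l lay 0.033 apart, and each lay 0.28 and 0.30 from Dnmt3a. For Dnmt1 Ikbip (0.009) and Dcaf8 (0.009) were among the nearest 3, and for Uhrf1 the nearest were Pip5k1c (0.004), Rpap1 (0.006) and Raver1 (0.007), among 1699 and 1870 genes within 0.1, so a small decrease like theirs was common. These distances are descriptions over 4 libraries.

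CTCF, the zinc finger protein whose binding the series set out to compare, had 26 merged regions within 20 kb of the 5 loci. Of these 17 had a peak in all 4 lists, 1 was TDG KO-only (a peak in each TDG KO list and none in WT), 0 were WT-only, and 8 were in some other mix. Of all 54729 merged regions 59.8% were in all lists and 10.8% were TDG KO-only. The lists were longer in TDG KO, with 48514 and 48833 peaks against 38303 and 37099 in WT. With the lists cut to equal length by score, 20 regions lay near the 5 genes, 17 in all lists and 1 TDG KO-only. The part of list length in TDG KO-only regions elsewhere was not tested.

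The TDG KO-only region lies inside Dnmt3a, at chr12:3817135-3817399 (mm10). It is 10.3 kb past the first start with a promoter window and far upstream of the internal start. The RefSeq gene itself begins further upstream, at position 3801559. The peaks of the TDG KO-only region had the authors' scores of 35.2 and 43.9 in the TDG KO lists, at percentiles 51.3 and 59.5 of those lists. The 5885 TDG KO-only regions as a whole had median percentiles of 18.1 and 17.8, and the Dnmt3a region scored above 98.2% and 99.8% of them. It was also TDG KO-only with the lists cut to equal length and with a stricter overlap of peaks. A TDG KO-only region within 20 kb was found for 1 of the 5 genes and for 30.1% of tested genes, and a WT-only region for 0 of the 5 and 0.656% of tested genes. Inside the locus a TDG KO-only region was found for 15.3% of tested genes, and for 24.6% of those with loci of 50 to 200 kb, the size class of Dnmt3a, so a TDG KO-only region in a locus of that size was common. Exons and introns were not told apart, and its sequence was not used here.

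The other CTCF regions of Dnmt3a were shared. Of 7 regions 5 were in all lists. Among them was chr12:3806196-3806540, inside the RefSeq gene, whose centre lies at -0.61 kb from the first start with a promoter window. It stood at percentiles 48.6 and 57.6 in TDG KO and 44.2 and 31.2 in WT. A weak region at chr12:3842903-3843093 was in TDG KO replicate 1 alone, at percentile 18.1. Percentiles are ranks inside lists of different length and show no change between lists.

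All 4 regions of Dnmt3l were in all lists, and 1 of them, chr10:78043390-78043759, lies 1.29 kb past the first Dnmt3l start and spans the annotated start of Aire. It stood at percentiles 84.6 and 91.1 in TDG KO and 79.9 and 88.1 in WT. The 149 bases of this region that lie before the Aire start are in the RefSeq promoter table, and they are shown with CpG dinucleotides in capitals because they belong to a CTCF region inside one of the 3 genes that rose.
CTCF region at Dnmt3l and Aire, chr10:78043611-78043759, minus strand: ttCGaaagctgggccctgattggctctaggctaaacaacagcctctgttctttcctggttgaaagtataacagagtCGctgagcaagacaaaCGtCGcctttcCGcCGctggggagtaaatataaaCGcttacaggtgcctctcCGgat

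It held 8 CpG and no match to a CTCF core motif on either strand, searched as CCA, AG and GGC with 2 free bases after each of the first pair. That motif was found in 2.07% of all 250-base windows. The rest of the region could not be read.

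Dnmt3b had 4 regions, with 2 in all lists. The stronger, chr2:153694488-153694888, lies past the end of the gene at percentiles 92.3 and 98.6 in TDG KO and 83.6 and 93.3 in WT, and the other lies inside the gene, 19.5 kb past the start. The remaining 2 were each in TDG KO replicate 1 and WT replicate 1. Dnmt1 had 5 regions, of which 2 past its end were in all lists. The stronger, chr9:20898509-20898921, was at percentiles 97.3 and 98.4 in TDG KO and 99.2 and 94.4 in WT and spans the start of Eif3g, a translation initiation factor gene. Inside Dnmt1, chr9:20916209-20916532 was in both TDG KO lists and WT replicate 1. Uhrf1 had 6 regions, 4 of them in all lists, led by chr17:56291218-56291706, whose centre lies at -11.9 kb from its first start, and 2 weak regions were in TDG KO replicate 1 alone at percentiles 1.92 and 11.5.

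**Figure D5:**
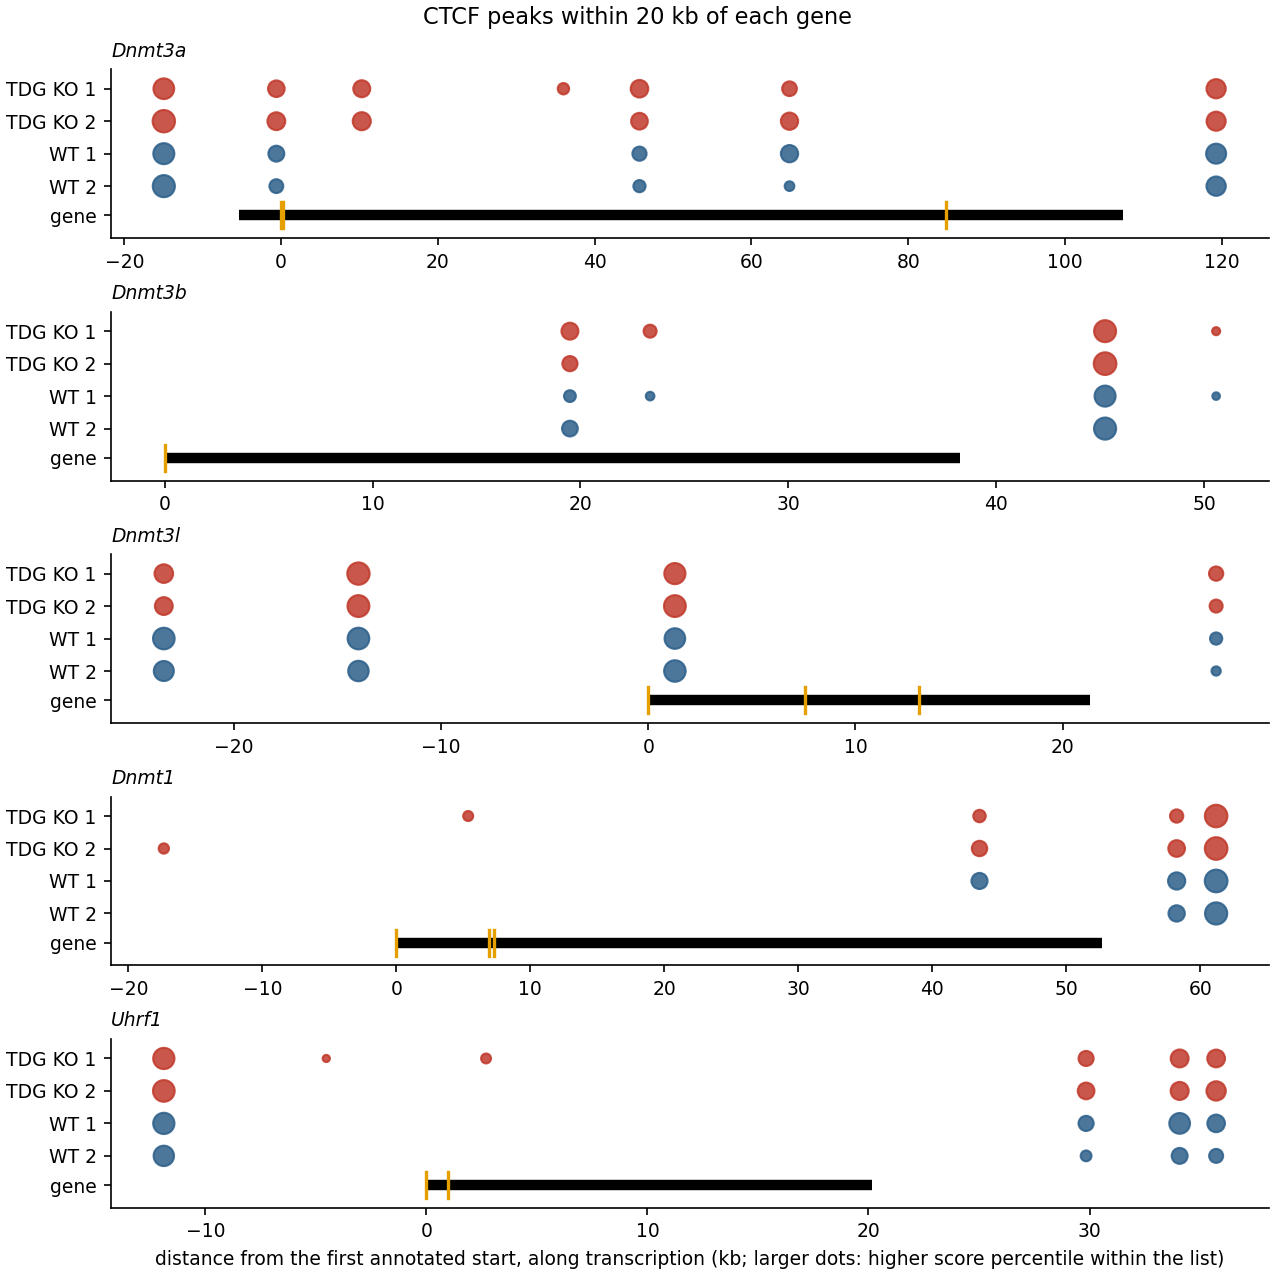
CTCF peaks in the 2 TDG KO and 2 WT lists (rows) within 20 kb of each gene's locus as the authors give it. The x axis is the distance in kb from the first start with a promoter window. Dot size is the score percentile within the list, black bars are the RefSeq genes and orange ticks the starts with a promoter window. The authors' locus of Dnmt3l also takes in Aire, so 1 of its regions lies 23.4 kb before the first start. Dnmt3a has the only column present in both TDG KO lists and absent from both WT lists, at 10.3 kb.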

How the data were processed

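RNA libraries were made with the TruSeq mRNA kit, per the labels' protocols. The deposited table holds FPKM values per gene and library, per the file headers, made with TopHat2 2.1.1, Cufflinks 2.2.1, Cuffdiff and mm10 as far as the submitters' processing notes list tools. A second deposited table gives the authors' group means, log2 folds, p-values, q-values and a test score per gene. Its folds run as WT over TDG KO, as the means show in 16171 of 16171 genes checked, and the sign was turned here. FPKM keeps no counts, so depth is unknown, and a library had between 20537 and 21776 genes above 0. CTCF peaks were deposited as 1 list per library with a score per peak, and Bowtie2 2.2.9, MACS2 2.2.1 and deepTools appear in the notes. No source used here states what that score measures, which control was used or where the threshold lay.

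Expression was tested 2-sided on log2(FPKM + 1) by limma 3.58.1 (R 4.3.3, trend variance prior), for genes with a mean of at least 1 FPKM, with Benjamini-Hochberg adjustment over all 12035 and a threshold of 0.05. This scale understates the change of low genes. The fit was tested on simulated data. Peaks were merged at 1 bp overlap in Python 3.11.15. Loci are those of the authors' table, 1-based, and gene ends and starts are from RefSeq on GRCm38.p6, the same assembly as mm10. Named beside the 5 genes and Tdg were the 3 called genes of each list with the largest change and a mean of at least 5 FPKM, Prdm14, Dppa3, Hells and Gm14490, and the 3 nearest patterns of each gene, of which 1 is not reported here. Further list members named for their role were chosen after their values were seen. The genes and lists were chosen with earlier results of these data known. RNA polymerase II, IgG and input libraries were not analysed here.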

Additional observations from a re-analysis of the deposited data

How the results depend on the processing

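Dnmt3a, Dnmt3b and Dnmt3l were called higher and Uhrf1 was not called under all 10 alternatives to the limma fit and in the authors' deposited table. The log2 change ranged from 1.41 to 1.51 for Dnmt3a, from 1.01 to 1.10 for Dnmt3b, from 0.95 to 1.09 for Dnmt3l and from -0.19 to -0.11 for Uhrf1 (adjusted p from 0.0639 to 0.329) over those 10. Dnmt1 was called in all 10, from -0.31 to -0.24, with an adjusted p of up to 0.0459 (without WT replicate 1), but not in the authors' deposited table (-0.29, q = 0.131). The 4 calls among the 5 genes became 3 there. Replicate numbers were not taken as pairs in the main fit. The deviations of same-numbered libraries correlated at -0.016, which cannot show whether those libraries were prepared together. With the replicate block 6696 genes were called against 6496 without it. Of the CTCF regions, 50 lay within 50 kb, 5 of them TDG KO-only, and the count of TDG KO-only regions within 20 kb was between 1 and 5 when each list in turn was omitted. Without TDG KO replicate 1 or without WT replicate 1 it was 2, and without TDG KO replicate 2 it was 5. Leaving out a list loosens the definition of TDG KO-only, so this count could rise but hardly fall. The distance from RefSeq gene ends, chosen after seeing the data, also gave a count of 26 regions and 1 TDG KO-only region. Equal counts do not make the sets equal, since the Dnmt3l region at chr10:78018757-78019081 lies 23.4 kb before the RefSeq start of Dnmt3l. With a library left out, 1 genotype has a single sample that is assumed to vary like the others. FPKM without counts gives no interval for counting error.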
